A study of Morus alba var. atropurpurea with 12 samples.

Results

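Mulberry is a woody plant grown for leaf and fruit. Messenger RNA from roots of its cultivar Yuesang10 (Morus alba var. atropurpurea) was compared between plants given cadmium chloride at 5 mM, the lowest dose of the series, and plants given none. The comparison took the 3 libraries labelled 5mM CdCl2 and the 3 labelled non-treated, 6 of the 12 libraries in all. Seedlings were raised in soil, cut back (shoot 10 cm, root 2 cm) and moved to aerated Hoagland nutrient solution. A pretreatment of 3 days came first, and the solution was changed every 5 days. Roots were taken after 20 days with or without CdCl2. Controls stood in the same solution without cadmium, and the other 6 libraries came from roots at 10 and 20 mM, 3 each. The unit mM is the one in the labels, which also give root as the tissue, whereas the series text speaks of fruit. The labels do not say whether replicate libraries stem from different plants. The p-values therefore reflect library-to-library spread alone, which may be technical.

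Cadmium has no known nutritional role in higher plants. It enters roots largely through transporters that serve iron, zinc, manganese and calcium, and it is bound by thiol compounds such as glutathione and the phytochelatins made from it, by metallothioneins and by cell walls, or is stored in the vacuole. None of these routes could be assigned to a transcript here, because the deposited tables give RefSeq-style XM identifiers without gene names. For the same reason root identity was not checked against marker genes, and no sequence is shown.

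Values are FPKM, a fragment number divided by transcript length and by the size of the library. Each library gave it for 19381 to 20071 transcripts, and a transcript that a library did not list was set to 0. The 5 mM libraries listed 19734, 19747 and 20071 transcripts, and the control libraries 19921, 19381 and 20001. The difference of the means was 83 transcripts (exact permutation test, two-sided, p = 0.8; the smallest p that 3 against 3 libraries allow is 0.1). The 10 most abundant transcripts held 6.35 ± 0.26% of the summed FPKM at 5 mM and 6.54 ± 0.98% in control (SD, n = 3 each; exact permutation p = 0.9). Read totals are unknown, but low values came in steps whose size is the worth of 1 read. That worth, relative to the mean of all libraries, was 0.991 ± 0.025 at 5 mM and 1.05 ± 0.012 in control (SD, n = 3 each), with no overlap between the groups (exact permutation p = 0.1). A smaller worth stands for more reads, so each 5 mM library was slightly deeper than each control library on this estimate.

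The calls consisted of 2 transcripts that were higher at 5 mM than in control, neither of them listed in any control library. XM_010098200.1 stood at 68.63, 77.72 and 43.61 FPKM in the 5 mM libraries, against 0, 0 and 0 FPKM in the control libraries. Its mean of 63.3 ± 17.7 FPKM at 5 mM (SD, n = 3) exceeded that of 83.8% of tested transcripts in that group. Its adjusted p was 0.0387, from limma with Benjamini-Hochberg adjustment over 17782 tested transcripts. In bulk roots a change in cell makeup and a change of RNA per cell cannot be told apart.

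XM_010110569.1 stood at 2.64, 3.05 and 3.06 FPKM in the 5 mM libraries, against 0, 0 and 0 FPKM in the control libraries. The 3 treated values lay close together at a low level, a mean of 2.92 ± 0.24 FPKM (SD, n = 3) that exceeded 23.6% of tested transcripts at 5 mM. It had the smallest p of all tested transcripts (limma adjusted p = 0.0193). For both called transcripts the controls, set to 0, had an SD of 0 and added no spread of their own to the standard error. Both also passed the filter of at least 1 FPKM in 3 or more of the 12 libraries through cadmium-treated libraries alone. A transcript unlisted in control could thus be tested only if it was higher under cadmium. No fold is given for either transcript, since the control libraries list them at 0. These calls made up 0.0112% of the tested transcripts, and the threshold was an adjusted p of 0.05.

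At 20 mM both transcripts were also called higher than control (limma adjusted p = 0.0119 for XM_010098200.1 and 0.000152 for XM_010110569.1), a comparison that shares its control libraries with that at 5 mM. Against the same controls at 10 mM, XM_010110569.1 was called higher (limma adjusted p = 0.00386) and XM_010098200.1 was not (0.0900). XM_010110569.1 had 3.14, 4.36 and 2.91 FPKM at 10 mM and 4.81, 5.98 and 5.97 FPKM at 20 mM. All 3 libraries at 20 mM were above all 3 at 5 mM, while those at 10 mM overlapped with them. On the log2(FPKM + 1) scale the difference of 20 mM from 5 mM was 0.75 ± 0.22 (SE; 95% interval 0.28 to 1.22; limma adjusted p = 0.224). That of 10 mM from 5 mM was 0.18 ± 0.22 (95% interval -0.29 to 0.65; limma adjusted p = 0.786).

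XM_010098200.1 had 5.57, 2.43 and 36.44 FPKM at 10 mM and 11.87, 64.15 and 23.8 FPKM at 20 mM. Its 3 highest values among the 12 libraries included 2 of the 5 mM libraries and 1 at 20 mM, and every 5 mM library was above every 10 mM library. The difference of 10 mM from 5 mM was -2.73 ± 0.75 on the log2(FPKM + 1) scale (SE; 95% interval -4.36 to -1.09; limma adjusted p = 0.218). The difference of 20 mM from 5 mM was -1.18 ± 0.75 (95% interval -2.82 to 0.45; limma adjusted p = 0.666). Neither transcript therefore differed between 5 mM and a higher dose past the threshold, and 20 mM was not tested against 10 mM. The intervals of XM_010098200.1 include changes of more than 2 log2 units.

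**Figure D1:**
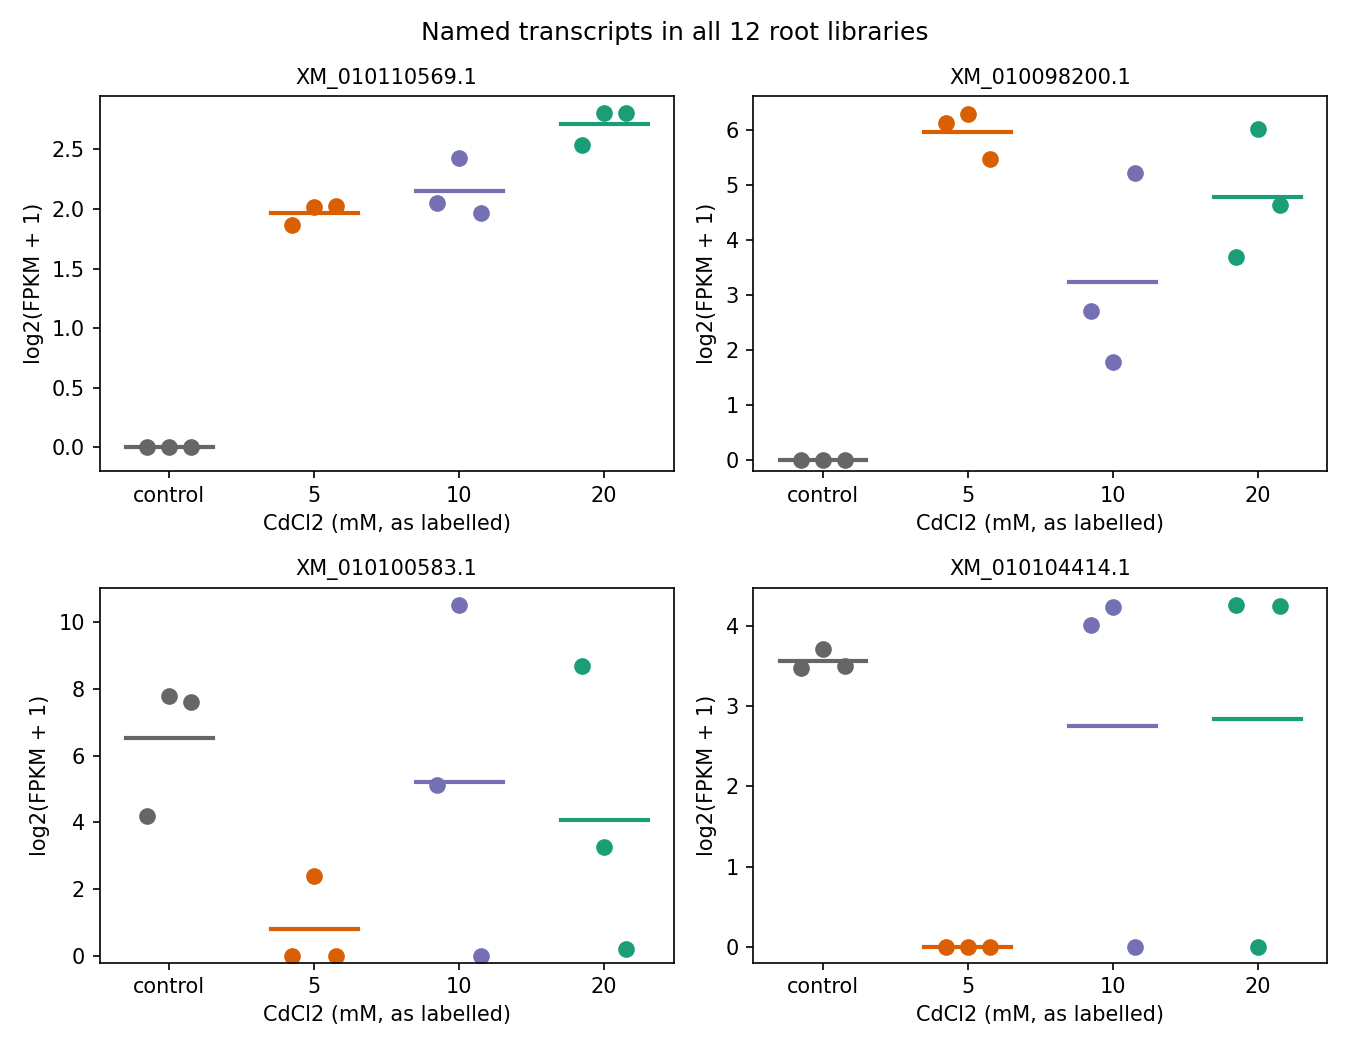
Level of the 4 named transcripts, as log2(FPKM + 1), in each library (points) with the group mean (bars), by labelled CdCl2 dose, 3 libraries a group. The upper pair is at 0 in all 3 control libraries, and the lower pair is below every control library in all 3 libraries at 5 mM. At 10 and at 20 mM each of the lower pair has libraries both below and above every control library.

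Both calls rested on small numbers of libraries. With each library left out in turn, limma's adjusted p for XM_010098200.1 ran between 0.00266 and 0.30 and that for XM_010110569.1 between 0.0149 and 0.175. Leaving out any 1 of the 5 mM libraries, any 1 of the control libraries or 20 mM replicate 3 ended both calls, except that without control replicate 3 another transcript was called. Without 10 mM replicate 1 the call of XM_010098200.1 was lost (adjusted p = 0.0767) and that of XM_010110569.1 was kept (adjusted p = 0.0471).

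**Figure D2:**
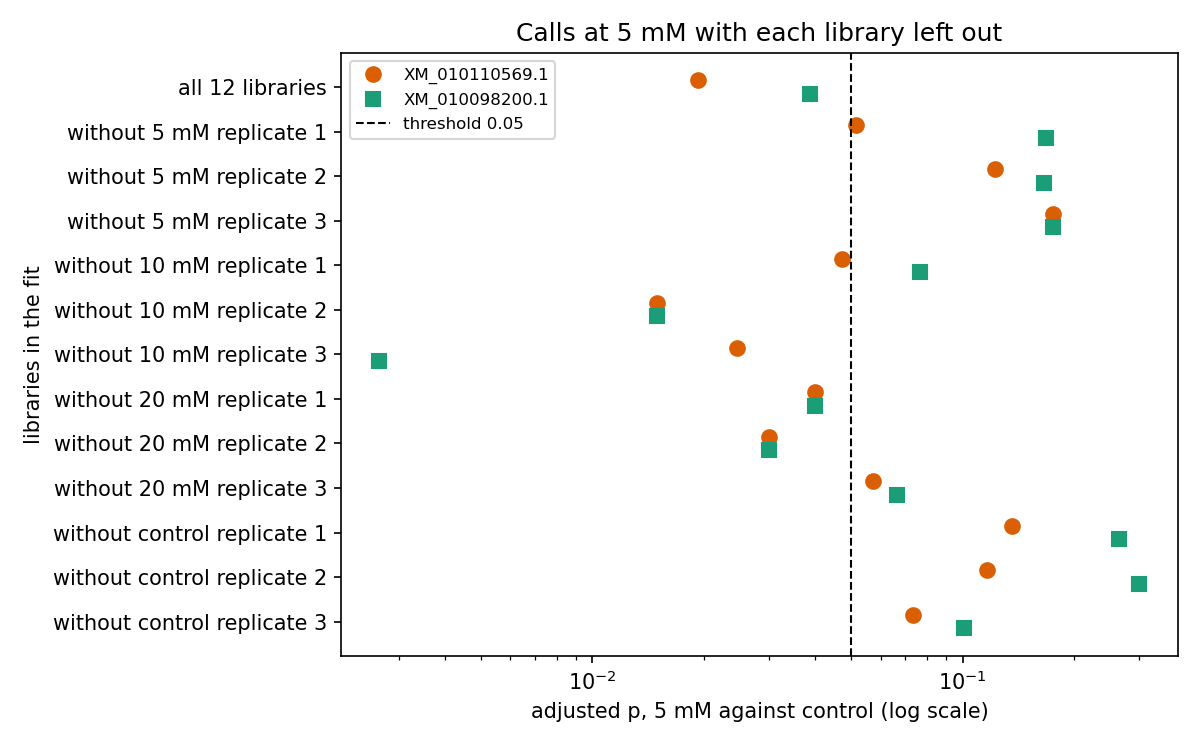
Adjusted p of the 2 called transcripts for 5 mM against control (log scale), with all 12 libraries and with each left out in turn. The dashed line is the threshold of 0.05, and both points lie right of it when any 5 mM or control library, or 20 mM replicate 3, is left out.

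No transcript was called lower by limma, so the share called lower was 0%. At an unadjusted p under 0.05, 744 transcripts were lower (4.18% of those tested) and 880 higher (4.95%). The next smallest adjusted p after the 2 calls was 0.378. It was shared by 9 transcripts, 3 of them higher and 6 lower at 5 mM, with log2 changes between -2.46 and 2.04. The list of transcripts by p thus had a wide gap directly behind its first 2 entries. Adjusted p-values between 0.05 and 0.5 were held by 206 higher and 230 lower transcripts.

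Among transcripts without overlap that had an unadjusted p under 0.05 and a mean of at least 5 FPKM in either group, XM_010100583.1 and XM_010104414.1 had the largest lower differences. XM_010100583.1 stood at 0, 4.25 and 0 FPKM in the 5 mM libraries, against 17.41, 221.82 and 194.67 FPKM in the control libraries. It had 33.94, 1463.25 and 0 FPKM at 10 mM and 412.21, 8.7 and 0.16 FPKM at 20 mM, so single libraries of 1 dose differed more than the 2 groups compared. Its log2 change was -5.74 ± 2.43 (SE; 95% interval -11.04 to -0.44; limma adjusted p = 0.538).

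XM_010104414.1 was listed in no 5 mM library, at 0, 0 and 0 FPKM, against 10.16, 12.16 and 10.37 FPKM in the control libraries. At 10 mM it had 15.12, 17.87 and 0 FPKM and at 20 mM 18.31, 0 and 18.13 FPKM. Each library thus showed it either at 0 or above 10 FPKM, with nothing in between, and both states occurred at each of the 2 higher doses. Its adjusted p was 0.475 in the limma fit of all 12 libraries and 0.00352 where the 5 mM and control libraries were fitted alone, a fit that leaves out the spread at 10 and 20 mM.

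Of all listed transcripts, 39 had at least 5 FPKM in 3 or more libraries and were unlisted in 3 or more, XM_010098200.1, XM_010100583.1 and XM_010104414.1 among them. XM_010098200.1 was the only 1 of the 39 listed in all 5 mM and no control libraries, 3 showed the reverse, and the other 35 followed neither pattern. Within a single group, 13 of the 39 had both a library at 5 FPKM or more and a library without the transcript at 5 mM, 15 in control, 21 at 10 mM and 14 at 20 mM. Gaps at high level were rare, since between 0 and 3 transcripts a library were unlisted while both other libraries of the group held at least 10 FPKM.

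Of all 22727 transcripts, 51 were listed in all 5 mM and no control libraries, and 36 in all control and no 5 mM libraries. Most were scarce, with a median of 0.473 FPKM at 5 mM for the 51 and 0.458 FPKM in control for the 36. XM_010098200.1 was far above the rest of the 51, the next mean being 5.81 FPKM, and XM_010104414.1 led the 36 at 10.9 ± 1.10 FPKM (SD, n = 3). Only 8 of the 51 and 7 of the 36 passed the filter of at least 1 FPKM in 3 or more of the 12 libraries. The greater depth of the 5 mM libraries moves with the larger number, and its part in the result was not tested. Of the 51, 14 were listed in all 10 mM libraries and 17 in all 20 mM libraries, while 10 and 7 were in none. Of the 36, 7 were listed in all 10 mM libraries and 6 in all 20 mM libraries, while 4 and 8 were in none. These comparisons share the control libraries.

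Most root transcripts differed little between 5 mM and control. The log2 change lay within 0.5 in either direction for 14122 transcripts, 79.4% of those tested, and the middle 50% lay between -0.19 and 0.31. Changes beyond 1 log2 unit were found in 529 transcripts (2.97%), 235 higher and 294 lower. Against the same controls they were found in 1036 transcripts (5.83%) at 10 mM and 1328 (7.47%) at 20 mM. Replicate spread differed too, with a median standard deviation of 0.269 log2 units at 5 mM, 0.325 at 10 mM and 0.3 at 20 mM. Its part in these counts was not tested. The median change over all tested transcripts was 0.07 log2 units for 5 mM, 0.09 for 10 mM and 0.06 for 20 mM, and scaling the libraries to a common median brought it to -0.003 at 5 mM.

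The precision of the comparison set how small a change could be bounded. For 9953 of the 17782 tested transcripts, 56%, the 95% interval of the log2 change at 5 mM lay wholly between -1 and 1, which leaves out a change of 2-fold or more on the FPKM + 1 scale. That share was 42.2% among transcripts with a mean under 5 FPKM over the 12 libraries and 67.8% among those over 100 FPKM. An interval within 0.5 in both directions was reached by 5.57%. The typical standard error was 0.29 log2 units, larger than the typical absolute change of 0.26.

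Transcripts whose 5 mM and control libraries did not overlap and whose means differed at least 2-fold (both means raised by 1 FPKM) were counted as a description of size. There were 109 such transcripts higher at 5 mM, 0.613% of those tested, and 191 lower, 1.07%. Over all tested transcripts, whatever the size of the change, 10237 were higher and 7542 lower as deposited, but this balance turned to 8817 higher and 8962 lower after median scaling and was 9368 and 8411 after quantile normalization. Without the 2-fold condition, 1717 transcripts lay wholly above the controls (9.66%) and 1284 wholly below (7.22%). After median scaling the counts with the 2-fold condition were 90 higher and 254 lower, so the share of higher ones was 26.2% in place of 36.3%. Without control replicate 3 they were 377 higher and 282 lower, and among the 6 counts with a library left out this was the only one in which higher transcripts were the larger number.

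By level, the 2 directions were distributed as follows. Among transcripts with a mean over 100 FPKM, 5 were higher (0.265% of that class) and 17 were lower (0.899%). In the class of 20 to 100 FPKM the numbers were 20 (0.412%) and 53 (1.09%), in that of 5 to 20 FPKM 47 (0.904%) and 59 (1.13%), and under 5 FPKM 37 (0.633%) and 62 (1.06%). The share of lower ones stayed between 0.899% and 1.13% over the classes, while that of higher ones was smallest in the most abundant class, and the classes were not tested against each other. The median log2 change of the most abundant class was -0.01, against 0.12 at 5 to 20 FPKM.

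**Figure D3:**
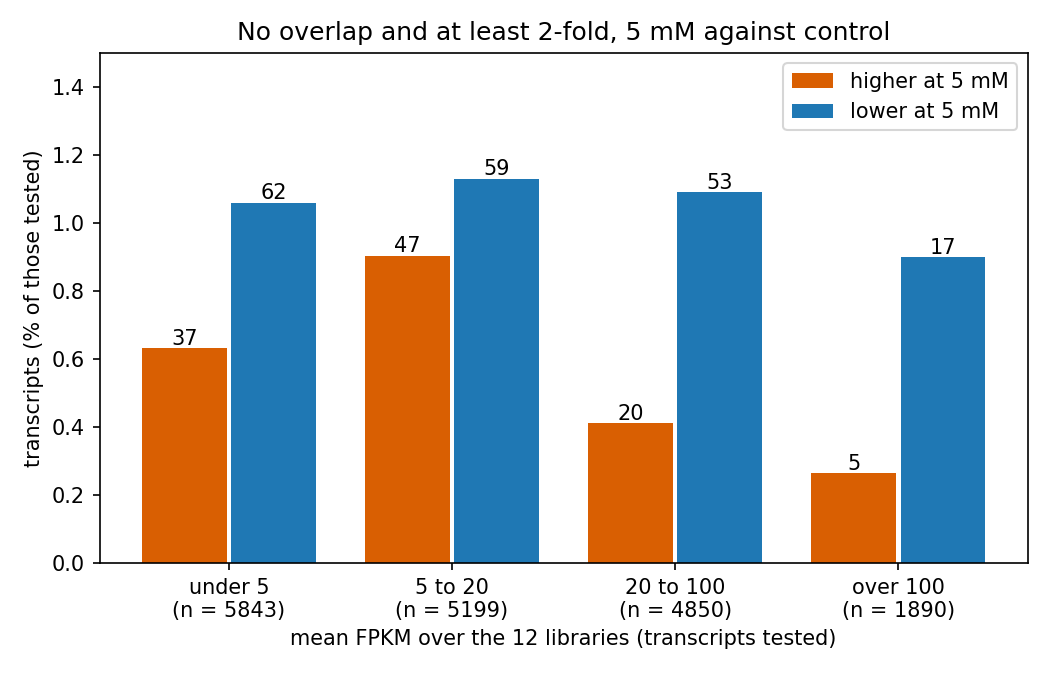
Share of tested transcripts (%) with no overlap and at least a 2-fold difference of means, higher (left bars) and lower (right bars) at 5 mM than in control, by mean FPKM over the 12 libraries; numbers over the bars are transcripts. Lower transcripts outnumber higher ones in every class, 17 against 5 above 100 FPKM.

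The middle levels of these sets give their scale. The 109 higher transcripts had a median of the group means of 10.1 FPKM at 5 mM and 3.57 FPKM in control. The 191 lower ones had 4.77 FPKM at 5 mM and 15.5 FPKM in control. At 10 and 20 mM the medians were 9.43 and 7.73 FPKM for the higher set and 11.0 and 10.1 FPKM for the lower set. In median log2 change against control, the higher set had 1.22, 0.85 and 0.88 in order of dose, and the lower set -1.22, -0.63 and -0.65. The sets were chosen at 5 mM and the 3 comparisons share their controls, so smaller values at the other doses follow in part from the choice. Differences of at least 4-fold were found in 8 of the higher and 12 of the lower transcripts.

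**Figure D4:**
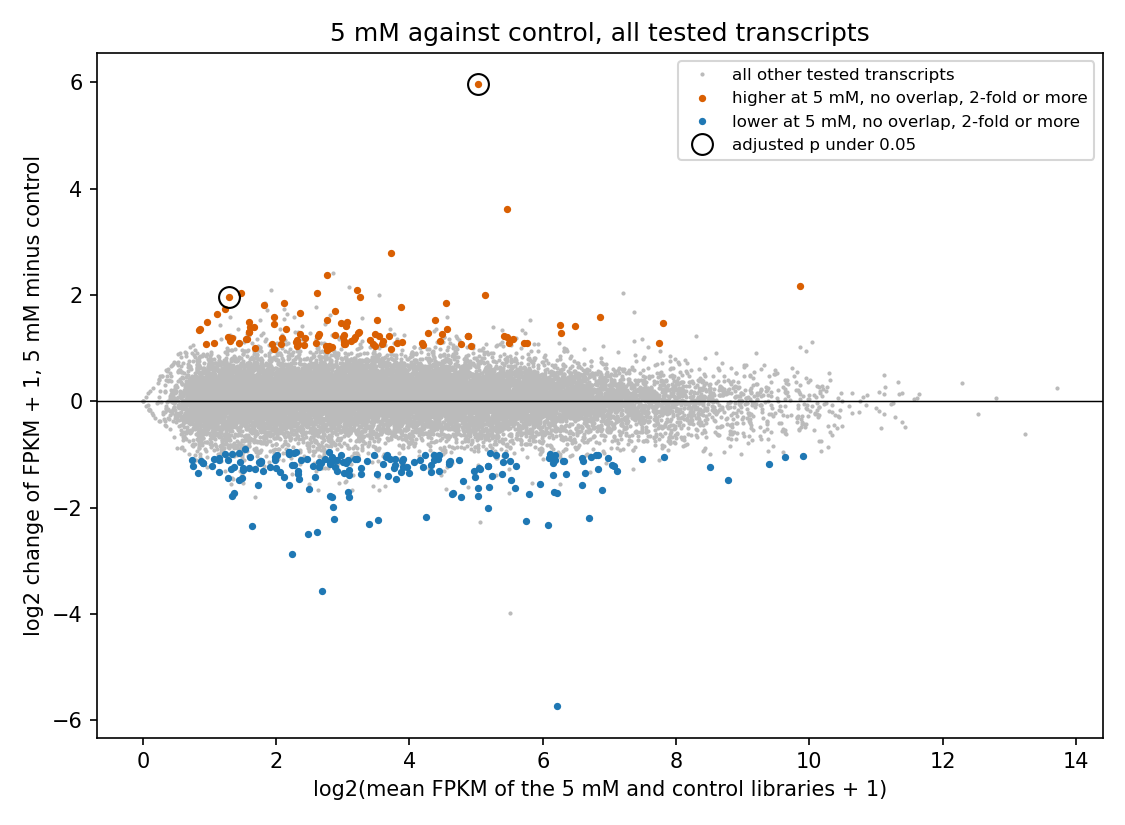
Log2 change of FPKM + 1, 5 mM minus control, against the level of each of 17782 tested transcripts, as log2 of the mean FPKM + 1 of both groups. Coloured points are the 109 higher and 191 lower transcripts without overlap and with a 2-fold difference or more, and the 2 circled points are the called transcripts.

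The most abundant transcripts of the root differed about as little as the rest. Of the 100 with the highest mean over the 12 libraries, all of at least 955 FPKM, 83 had log2 changes within 0.5 in either direction, beside 79.4% of all tested transcripts, and the median was -0.05. Their changes ran from -0.93 to 2.16, and none was called by limma (lowest adjusted p = 0.431), while an unadjusted p under 0.05 was reached by 3 higher ones and 6 lower ones, beside 4.95% and 4.18% of all tested transcripts. A single one of them had no overlap with a 2-fold difference. It stood at 1788.97, 1434.44 and 1237.22 FPKM at 5 mM, against 188.28, 591.7 and 313.47 FPKM in control, a log2 change of 2.16 ± 0.60 (SE). At 10 mM it had 413.42, 1029.55 and 914.55 FPKM and at 20 mM 2354.91, 738.12 and 4430.12 FPKM, so the 20 mM libraries lay on both sides of those at 5 mM.

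Distances between whole libraries overlapped between and within the groups. The median absolute log2 difference over tested transcripts was 0.320 to 0.537 for the 9 pairs of a 5 mM and a control library, 0.274 to 0.365 for the 3 pairs of 5 mM libraries and 0.332 to 0.419 for the 3 pairs of control libraries. The farthest pair was 5 mM replicate 3 and control replicate 2, and control replicate 3 was as close to the 5 mM libraries (0.320 to 0.340) as to control replicate 1 (0.332). The median standard deviation of a transcript within the group was 0.269 log2 units at 5 mM and 0.339 in control. Control replicate 2 had 15558 transcripts of at least 1 FPKM, against 16644 and 16720 in the other control libraries and 16171 to 16846 at 5 mM.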

How the data were processed

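Each library has 1 table, in which the authors deposited the FPKM of every transcript found, per the file headers. The sources used here name no aligner, counting tool or genome build. Zeros are left out of the tables and values carry 2 decimals, the lowest being 0.01. Because FPKM is relative to the library's total, an abundant transcript that changes moves the values of the rest, and reads shared by similar transcripts could not be traced.

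Sample titles gave the group and replicate of each library. The tables hold 22727 transcripts, of which 17782 reached 1 FPKM in 3 or more of the 12 libraries and were tested as log2(FPKM + 1). This scale compresses the changes of scarce transcripts. limma 3.58.1 (R 4.3.3) fitted the 4 group means to the 12 libraries together, using its variance trend. Two-sided p-values received Benjamini-Hochberg adjustment per comparison, with 0.05 as the threshold. The steps were run on simulated data with normal noise, its spread for a transcript being the same in all 4 groups. Transcripts at 0 throughout a group were not simulated, so the simulation does not bear on calls of that kind.

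Relative depth came from 1090 sparse transcripts. Of their 7012 values, 84.1% were whole multiples of a step taken as 1 read, with a tolerance of 0.1, as were 75.7% of the 3508 values over 1.5 steps. The step of a transcript was set from its own lowest values, so values near 1 step match it by construction. Only the share over 1.5 steps is free of this. Read totals are unknown, so counting intervals are left out.

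Up to 2 identifiers a direction are named. Called ones come first, then the largest log2 changes among transcripts without overlap that had an unadjusted p under 0.05 and averaged 5 FPKM or more in either group. The comparison and these rules were chosen with earlier results of these data known. Product-name lists had been planned and could not be applied to identifiers without names.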

Additional observations from a re-analysis of the deposited data

How the results depend on the processing

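The count of 2 calls at 5 mM, both higher, was 1 without a filter, with quantile normalization, or with robust moderation in place of the variance trend. It was 0 when only transcripts averaging 5 FPKM or more were tested, a filter that XM_010110569.1 does not pass, and 0 under the replicate block. Fitted on the 5 mM and control libraries alone it was 4, with 1 higher and 3 lower. It was 3 with a pseudocount of 0.1 and 2 with median scaling or array weights. With 1 library left out it ran from 0 to 2, and calls of lower transcripts were 0 in all 12 such limma fits.

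The call of XM_010098200.1 was also lost without a filter (adjusted p = 0.0654), with the 5 FPKM filter (0.0740), with quantile normalization (0.0551), and with robust moderation (0.0659). Its alternatives ranged from 0.000583 to 0.30. That of XM_010110569.1 was lost where 5 mM and control were fitted alone (adjusted p = 0.0823), and its alternatives ranged from 0.000213 to 0.175. With the replicate block both were lost (adjusted p = 0.139 and 0.109). Same-numbered 5 mM and control libraries had correlations of deviations from group means of 0.0205, 0.128 and 0.202. Differently numbered ones ran from -0.254 to 0.138. The main fit did not pair the samples, and whether the numbers pair them was not tested. The cause of the changes in the calls was not tested either.

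The counts without overlap and with a 2-fold difference, 109 higher and 191 lower, were 229 and 313 with a pseudocount of 0.1, 72 and 129 with the 5 FPKM filter, 576 and 638 at 1.5-fold, and 8 and 12 at 4-fold. With 1 of the 6 libraries left out they ran from 137 to 377 higher and from 245 to 309 lower, as fewer libraries overlap less. The differences between 5 mM and control in transcripts listed and in the share of the most abundant transcripts had 1 alternative each. Both kept their direction, at an exact permutation p of 0.8 for transcripts of at least 1 FPKM and 0.6 for the share of the 100 most abundant. Neither direction is therefore told apart from no difference. Read totals are unknown, so the limit that depth sets on scarce transcripts cannot be stated.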
